A study of Homo sapiens with 647 samples.

Results

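HMGB1, HMGB2 and HMGB3 are the 3 genes described here, out of 54592 gene rows in the count table. They were picked by name, as the rows of these 3 symbols, after HMGB2 had been seen to stay higher in libraries given FIIN-3 together with palbociclib, so every value of that combination is given as a description with no test. The cells were T47D, an established line of estrogen receptor positive, luminal breast cancer. Lentivirus carrying the pLX307 vector was used to express FGFR1, wild-type FGFR2, FGFR2 with the M538I, N550K or K660N substitution, or the ligand FGF3, and the controls were GFP-infected and parental cells. The labels do not say whether a line is a clone, and the transgenes are overexpressed from a vector and not from their own locus. Cells grew in 96-well plates for 48 h and were then treated for 24 h with FIIN-3 at 100 nM, an irreversible FGFR inhibitor, trametinib at 500 nM, a MEK inhibitor, palbociclib at 1 µM, a CDK4/6 inhibitor, fulvestrant at 100 nM, which degrades the estrogen receptor, or the vehicle DMSO. The ligand FGF2 was added alone or with the drugs in every line except the FGF3 line. In set 1, the 7 lines without FGF3 received fulvestrant with palbociclib and FGF2, fulvestrant with FGF2 and FIIN-3, fulvestrant with FGF2 and trametinib, FIIN-3 with FGF2, fulvestrant with FGF2, FGF2, fulvestrant, or DMSO. The N550K line in set 1 also received FIIN-3 with and without fulvestrant. In set 2, the same lines received palbociclib with FGF2 and FIIN-3 with or without fulvestrant, fulvestrant with palbociclib, FGF2 and trametinib, palbociclib with FGF2, palbociclib, or FIIN-3. The FGF3 line had the matching treatments without FGF2 in both sets, and a group labelled control in set 2. RNA-seq libraries made by Smart-seq2 numbered 647, in 64 groups in set 1 and 48 groups in set 2 of 4 to 6 libraries each.

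HMGB proteins are abundant, non-histone chromatin proteins that bind the minor groove without much sequence preference and bend DNA through a pair of HMG boxes, followed by an acidic tail. HMGB1 is present in nearly all cells and, when released, acts as an alarm signal through RAGE (AGER) and TLR4. HMGB2 is the member most closely tied to dividing cells and, like HMGB1, can act in DNA repair and, within the SET complex, in DNA cleavage, and its loss is a known feature of cells entering senescence. HMGB3 is known from embryonic tissue and blood stem cells and is often high in tumours. Palbociclib blocks the kinases that release E2F factors at the G1/S transition, and FGFR signals through the MAPK cascade that trametinib also blocks.

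The promoters of HMGB1 and HMGB3 are shown, and HMGB2 had no entry among the promoter sequences used. Promoters of cell cycle genes are known for CCAAT boxes. The sequences are RefSeq promoters of 250 bases before to 50 bases after the annotated start, on GRCh38.p14, read on the gene's own strand, and 2 of the 3 members matched the table. HMGB1 lies at chr13:30465887-30466186 on the minus strand and HMGB3 at chrX:150983085-150983384 on the plus strand. Capitals mark matches, on either strand, to CCAAT or to a cell cycle homology region (TTTGAA or TTCGAA).
HMGB1: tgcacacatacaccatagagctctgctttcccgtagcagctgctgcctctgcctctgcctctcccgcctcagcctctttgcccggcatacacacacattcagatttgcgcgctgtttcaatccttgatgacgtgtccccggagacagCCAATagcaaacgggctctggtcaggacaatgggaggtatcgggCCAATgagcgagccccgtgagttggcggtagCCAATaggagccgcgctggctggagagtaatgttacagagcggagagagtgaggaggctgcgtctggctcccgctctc
HMGB3: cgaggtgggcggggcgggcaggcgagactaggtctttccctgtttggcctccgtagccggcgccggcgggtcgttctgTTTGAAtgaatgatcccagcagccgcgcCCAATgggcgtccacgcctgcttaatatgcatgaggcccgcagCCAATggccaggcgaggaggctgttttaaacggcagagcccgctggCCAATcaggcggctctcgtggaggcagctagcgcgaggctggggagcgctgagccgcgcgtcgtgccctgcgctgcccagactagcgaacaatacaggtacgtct
Each of these windows held CCAAT 3 times, and 3.258% of 35116 promoters held it at least 3 times and 34.61% at least once. The HMGB3 window also held TTTGAA, and 16.35% of all promoters held a cell cycle homology region. Neither window held any of 4 E2F words (TTTCCCGC, TTTGGCGC, TTTCGCGC and TTTGCCGC), which were in 3.315% of promoters. None of the motif words overlapped another in these windows. The table lists other start sites too, and the second HMGB1 entry held CCAAT 1 time, the one after it 0 times, and the second HMGB3 entry 0 times. The second HMGB1 entry also held TTTGAA. The HMGB1 frame of 648 bases was 77.14% identical to that of HMGB2 and 74.13% to that of HMGB3, and HMGB2 and HMGB3 were 72.64% identical.

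Library totals ranged from 512961 to 13012180 counts in set 1 (median 7570052.5) and from 619509 to 4804935 in set 2 (median 2887186). The median raw count in set 1 was 1188 for HMGB1, 589.5 for HMGB2 and 561.5 for HMGB3, and in set 2 it was 53 for HMGB2 and 160 for HMGB3, so HMGB2 is the least precise of the 3 in set 2. The sets differ in depth and in treatments and are described apart. A total of 14 libraries in set 1 and 2 in set 2 stood apart by an MT-RNR2 share under 5% of counts, against a median of 18.03% in set 1 and 18.9% in set 2, and 8 of them were DMSO libraries. In set 1, the 10 of these among the DMSO and fulvestrant libraries had HMGB1 at 408 to 636 CPM (counts per 1e+06 of the library total scaled by its TMM factor), against 110.7 to 346.4 CPM in the other 72, and HMGB2 and HMGB3 were raised likewise. Where leaving them out ended a call, turned a direction or moved a called value by much, the value without them is also given. The transgene was at a median of 1135 CPM for FGFR1, 688 CPM for FGFR2 and 297.2 CPM for FGF3 in its own lines, against 8.73, 16.5 and 0 CPM in the parental and GFP lines. The lowest FGFR2 value in an FGFR2 line, 27.9 CPM, was within the range of those controls, whose highest was 34.1 CPM. All 8 luminal markers checked were detected in all 647 libraries, and the summed level of 6 markers of other cell types was 8.33 to 58.9 CPM. Reads in HMGB1 pseudogene rows came to 10.8% of all reads in HMGB1 and those rows, most of them in HMGB1P5, whose transcript was 99.42% identical to the HMGB1 frame over 516 bases. The share was 0.102% for HMGB2 and 0.628% for HMGB3, so the HMGB1 values are the least certain of the 3 in this respect, and adding the pseudogene rows changed no call. Nothing in the labels says that the libraries of a group came from separate cultures beyond separate wells, so p-values measure the spread between these libraries only.

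HMGB2 was the most abundant of the 3 transcripts per unit length in the groups without palbociclib. On the TPM scale, with the mean taken over lines, the level with FGF2 in set 1 was 108.6 TPM for HMGB2, 58.7 TPM for HMGB1 and 50.1 TPM for HMGB3 (SD over 7 lines 20.5, 4.46 and 3.69). With palbociclib and FGF2 in set 2 the order turned round, at 7.28 TPM for HMGB2, 25.3 TPM for HMGB1 and 35.7 TPM for HMGB3. With FIIN-3 added to palbociclib and FGF2 the levels lay close together, at 28.2, 20.8 and 24.7 TPM. On the CPM scale, HMGB2 in set 1 was highest in DMSO (121.4 ± 25.8 CPM, SD over 7 line means) and ran down through FGF2, fulvestrant with FGF2, fulvestrant, trametinib and both FIIN-3 groups (74.3 ± 12.2 CPM with fulvestrant and FGF2), where no step between neighbours exceeded the larger SD. The first rank rests on the 8 DMSO libraries that stood apart, since without them DMSO averaged 95.3 CPM, below 107.4 CPM with FGF2 and 106.1 CPM with fulvestrant and FGF2. The last step, to 7.99 ± 2.74 CPM with fulvestrant, palbociclib and FGF2, was far larger than the SD. In set 2, HMGB2 fell into 3 levels, with FIIN-3 alone highest (67.3 ± 7.01 CPM), both groups of palbociclib with FGF2 and FIIN-3 between (31.3 ± 6.21 and 30.8 ± 6.01 CPM) and the 3 palbociclib groups without FIIN-3 lowest (10.1 ± 0.806, 9.24 ± 1.00 and 7.17 ± 3.02 CPM). Neighbours within the middle and within the lowest level did not differ beyond their SD. Over the treatments given to all 7 lines, mean HMGB1 ranged from 113.99 to 262.1 CPM in set 1 and from 81.8 to 118.1 CPM in set 2. Mean HMGB3 ranged over the same treatments from 59.6 to 107.8 CPM and from 48.4 to 71.7 CPM. These ranges leave out the FGF3 line and the set 1 treatments given to the N550K line only. In that line HMGB1 averaged 91.8 CPM with FIIN-3 and 89.2 CPM with fulvestrant and FIIN-3. HMGB3 averaged 40.9 and 42.4 CPM there. The top values, 262.1 and 107.8 CPM, were both at DMSO, where the means without the libraries that stood apart were 193.8 CPM for HMGB1 and 76.4 CPM for HMGB3. For HMGB3 in set 1, no step between neighbours among the treatments given to all 7 lines exceeded the larger SD.

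**Figure D1:**
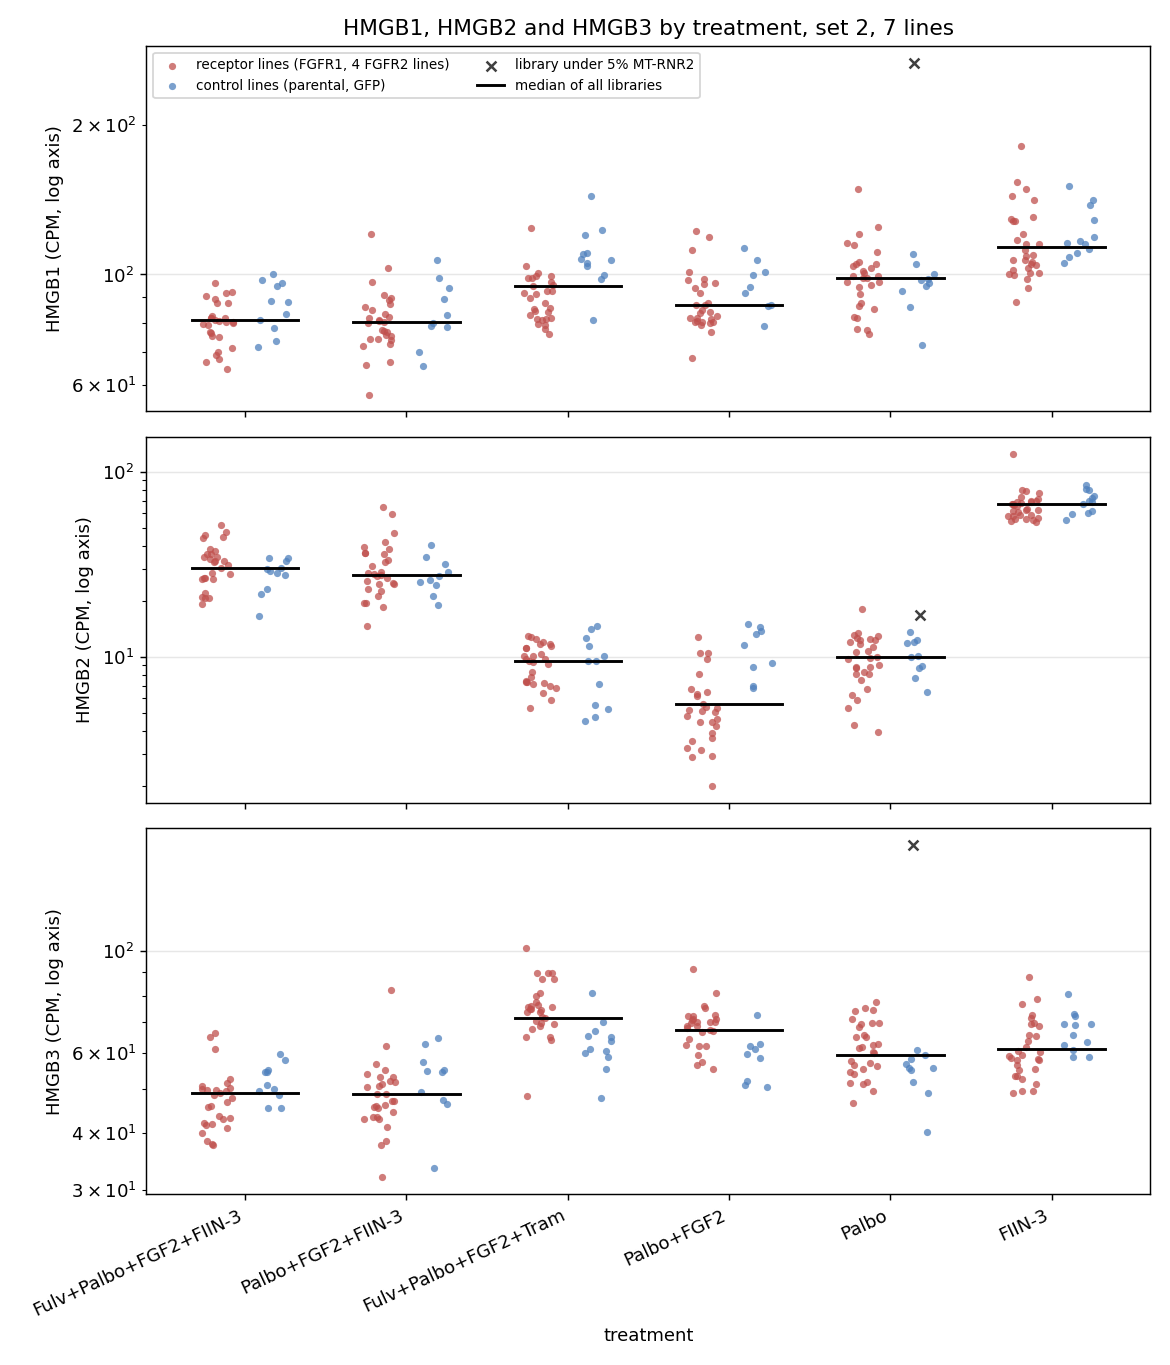
CPM (log axis) of HMGB1, HMGB2 and HMGB3 in each library of set 2, by treatment, for 7 lines; red points are the FGFR1 and FGFR2 lines, blue points the parental and GFP lines, a cross is a library under 5% MT-RNR2, and bars are medians over all libraries. HMGB2 with palbociclib, FGF2 and FIIN-3 (median 27.6 CPM) lies between palbociclib with FGF2 (median 5.58 CPM) and FIIN-3 alone (median 66.8 CPM), whereas HMGB1 and HMGB3 overlap across treatments.

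With palbociclib, FGF2 and FIIN-3, HMGB2 ran from 14.7 to 64.8 CPM over 39 libraries with a median of 27.6 CPM, against 2.01 to 14.97 CPM with a median of 5.58 CPM in 37 libraries given palbociclib and FGF2. All but 1 of the 39 libraries lay above every one of the 37. The fitted difference was 2.19 on the log2 scale, 4.56-fold higher, and 11 of 12112 genes had a higher value. HMGB1 ran from 57.4 to 120.3 CPM (median 80.2) with FIIN-3 added, against 68.1 to 122.5 CPM (median 86.8), and its fitted difference was -0.14. HMGB3 ran from 31.97 to 82.4 CPM (median 48.8) with FIIN-3 added, against 50.5 to 91.3 CPM (median 67.3), with a fitted difference of -0.42. So HMGB2 was higher where both relatives were level or lower, and the median of all 12112 genes in this comparison was 0.03. In bulk samples a lower share of cells that express a gene and less RNA per cell cannot be told apart.

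Each of the 7 lines showed the higher HMGB2 level, with no overlap between its libraries in the 2 treatments. Means with palbociclib, FGF2 and FIIN-3 were 27.5 ± 18.6 CPM in the FGFR1 line, 26.01 ± 2.23 CPM in the wild-type FGFR2 line and 42.5 ± 9.94 CPM in the K660N line (SD, n = 6, 6 and 5). The same lines given palbociclib and FGF2 had 3.91 ± 1.15, 4.22 ± 1.28 and 6.96 ± 2.59 CPM (n = 6 each). The FGFR1 line had 1 library at 64.8 CPM, and its other 5 were at 14.7, 25.8, 21.4, 19.6 and 18.7 CPM. The M538I line had 32.5 ± 9.80 CPM with FIIN-3 added, against 6.93 ± 3.48 CPM, and the N550K line 29.3 ± 4.08 CPM, against 6.26 ± 3.02 CPM. The parental cells had 34.7, 40.5, 28.8 and 27.3 CPM with FIIN-3 added, against 13.9, 6.79, 9.25 and 6.97 CPM. The GFP line had the smallest difference, 24.7 ± 4.36 CPM with FIIN-3 added and 12.7 ± 2.49 CPM without it. As a difference of mean log2 CPM (TMM-scaled, prior count of 2, which draws in low values) it was 2.17 to 2.53 in the 5 receptor lines and 1.79 and 0.93 in the parental and GFP lines. Levels with FIIN-3 overlapped between the receptor lines and the controls, while the line means with palbociclib and FGF2 were 3.91 to 6.96 CPM in the receptor lines and 9.22 and 12.7 CPM in the controls.

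**Figure D2:**
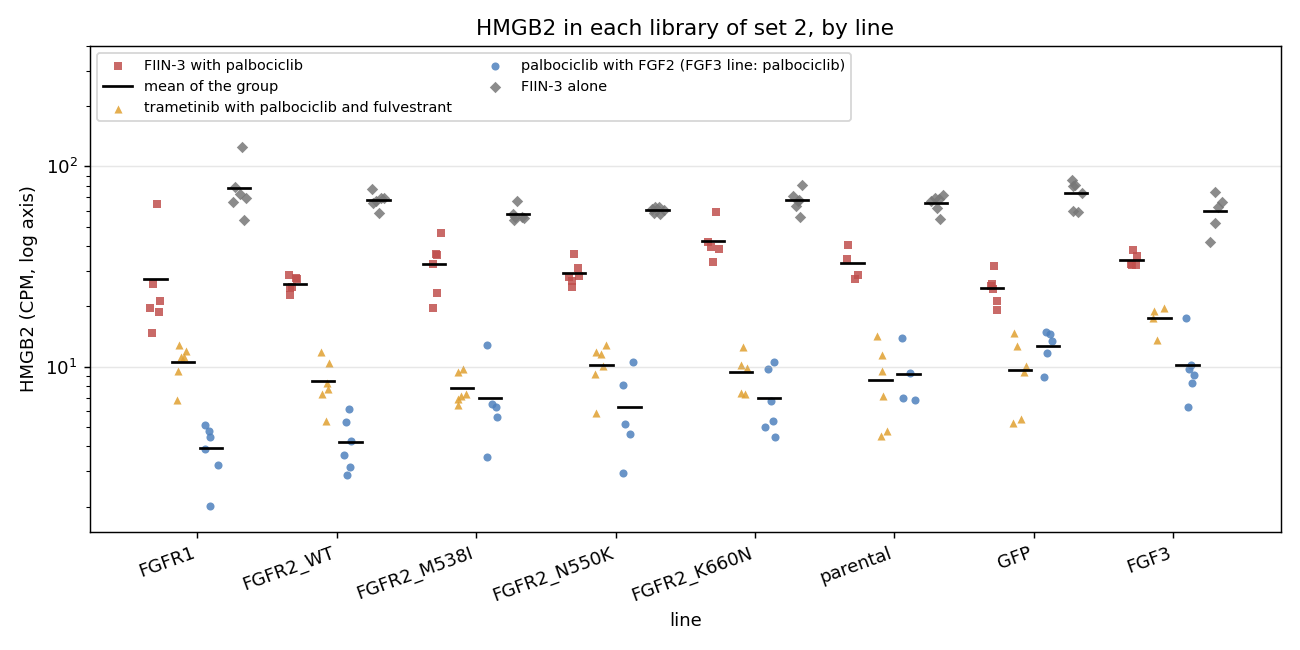
HMGB2 in CPM (log axis) in each library of set 2 by line, for FIIN-3 with palbociclib (with FGF2 except in the FGF3 line), trametinib with palbociclib and fulvestrant, palbociclib with FGF2 (palbociclib alone in the FGF3 line) and FIIN-3 alone; bars are group means. In all 8 lines FIIN-3 with palbociclib lies above palbociclib without FIIN-3, and the mean with trametinib is 17.4 CPM or lower.

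Set against FIIN-3 alone, the palbociclib, FGF2 and FIIN-3 libraries were lower, at 14.7 to 64.8 CPM against 53.8 to 125.4 CPM (median 66.8 CPM, 42 libraries), a difference of -1.16 on the log2 scale. HMGB1 and HMGB3 differed by -0.52 and -0.35 in the same contrast. Fulvestrant on top of the combination moved HMGB1, HMGB2 and HMGB3 by -0.01, 0.03 and -0.04 on the log2 scale. HMGB2 with fulvestrant, palbociclib, FGF2 and trametinib ran from 4.49 to 14.7 CPM (median 9.51), against 16.7 to 51.4 CPM (median 30.3) where FIIN-3 took the place of trametinib. All 41 trametinib libraries were below all 39 FIIN-3 libraries, a difference of -1.74 on the log2 scale. HMGB3 went the other way, at 47.6 to 101.5 CPM (median 71.4) with trametinib against 37.7 to 66.1 CPM (median 48.8) with FIIN-3, a difference of 0.57, and HMGB1 differed by 0.23. These contrasts share the FIIN-3 with palbociclib libraries.

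The FGF3 line, which received no FGF2, showed the same order of treatments. HMGB2 was at 32.7, 35.8, 38.5, 32.02 and 32.2 CPM with palbociclib and FIIN-3, against 6.28 to 17.5 CPM (median 9.39, 6 libraries) with palbociclib and 74.98 to 103.1 CPM (median 100.3, 6 libraries) in the control group. FIIN-3 alone gave 66.2, 42.1, 52.4, 62.97 and 74.6 CPM. The combination libraries thus lay above every palbociclib library and below every FIIN-3 and control library. The log2 difference was 1.76 against palbociclib, where 18 of 10880 genes were higher, -0.81 against FIIN-3 and -1.504 against control. With fulvestrant added to palbociclib and FIIN-3, HMGB2 ran from 35.4 to 48.7 CPM (median 41.9), a difference of 0.33. Trametinib with fulvestrant and palbociclib gave 13.6, 17.4, 19.6 and 18.9 CPM, a difference of -1.29 from FIIN-3 with fulvestrant and palbociclib. HMGB1 with palbociclib and FIIN-3 was at 100.1, 87.8, 87.9, 96.8 and 66.5 CPM, against 105.4 to 138.5 CPM (median 120.4) with palbociclib, and HMGB3 at 62.9, 41.9, 46.3, 42.5 and 34.6 CPM, against 53.5 to 73.6 CPM (median 56.4). Their log2 differences were -0.45 and -0.38, so that in this line too HMGB2 alone of the 3 was higher with FIIN-3 added.

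When FIIN-3 joined palbociclib and FGF2 in the 7 lines, the medians of the cell cycle lists lay below 0 while HMGB2 was higher. The median log2 difference was -0.34 over 18 of 19 G1/S and replication genes that passed the filter on low counts, -0.15 over 17 of 18 G2/M and mitosis genes and -0.27 over 14 of 14 histone chaperone and replicating chromatin genes, beside 0.03 over all genes. TOP2A, the topoisomerase of mitotic chromosomes, differed by -0.08, PLK1, a mitotic kinase, by 0.26, CDC45, of the replicative helicase, by -1.07 and RRM2, a ribonucleotide reductase subunit, by -0.42. LMNB1, the nuclear lamin B1, differed by -0.00, and LBR, the lamin B receptor, by -0.08. MAPK output genes had a median of -2.56 over 11 of 14, with SPRY4, a feedback inhibitor, at -4.52, DUSP6, an ERK phosphatase, at -3.85 and ETV4 at -3.39. Among other high mobility group genes the median was 0.06 over 14 of 16, with HMGA1 at -0.71 and HMGN1 at 0.53, and HMGN2 at 0.61 and HMGN4 at 0.70, both named after their values were seen. The SET complex and HMGB partner list had a median of -0.02 over 7 of 8. The list of HMGB1 receptors and release had 0.59 over 6 of 10, with CXCR4 at -1.89 and its ligand CXCL12, which binds HMGB1, at 1.00. In the FGF3 line the median over 16 of 18 G2/M genes was 0.60, all 16 above 0, and over 13 of 19 G1/S genes -0.37.

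**Figure D3:**
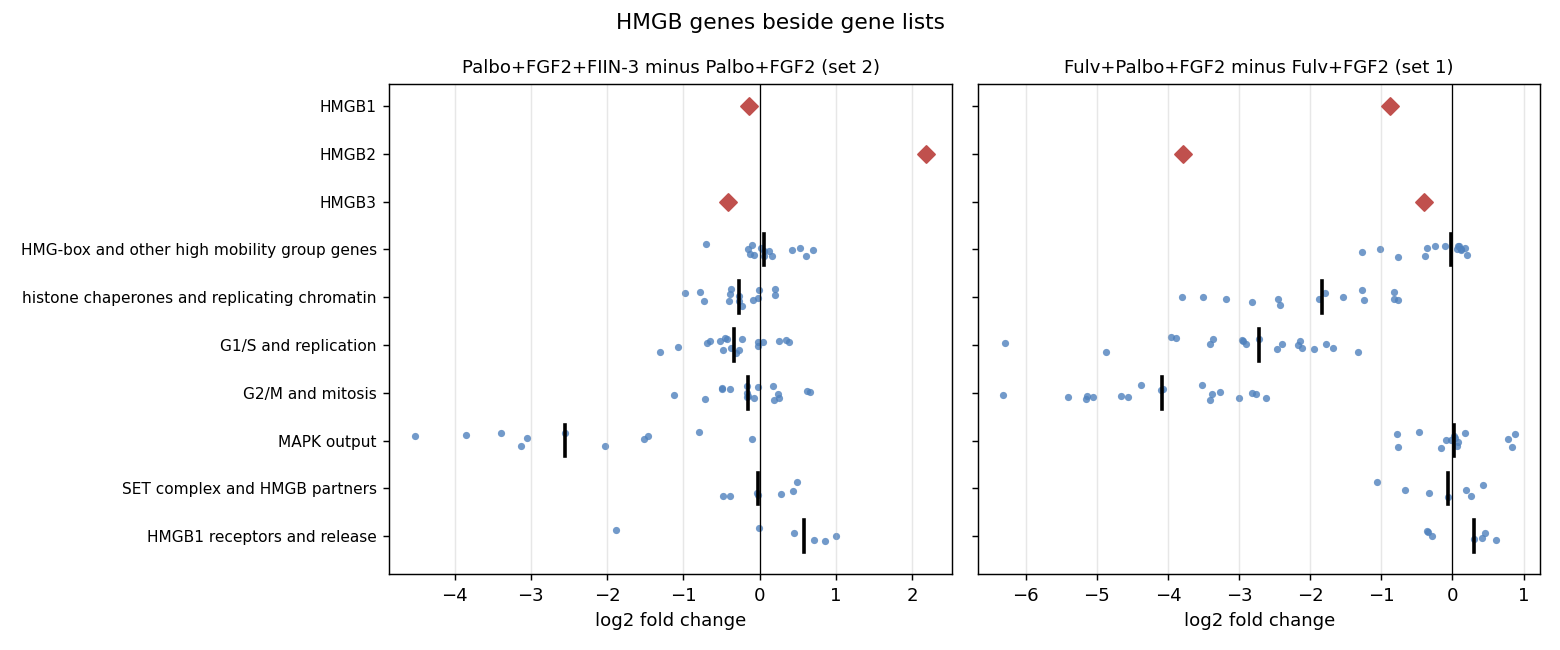
Log2 fold change of HMGB1, HMGB2 and HMGB3 (red) and of the genes of 7 lists (blue points, black bar the list's median), for palbociclib, FGF2 and FIIN-3 minus palbociclib and FGF2 in set 2 (left) and for fulvestrant, palbociclib and FGF2 minus fulvestrant and FGF2 in set 1 (right). On the right HMGB2 (-3.78) lies among the cell cycle lists, and on the left it stands at 2.19 while their medians are between -0.34 and -0.15.

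Of the treatments tested in set 1, palbociclib lowered HMGB2 the most. With fulvestrant, palbociclib and FGF2, HMGB2 ran from 3.15 to 18.8 CPM (median 7.12, 41 libraries), against 58.8 to 169.9 CPM (median 100.0, 42 libraries) with fulvestrant and FGF2. All 41 libraries lay below all 42, and the 2 ranges did not overlap in any of the 7 lines. The log2 fold change was -3.78 ± 0.09 (SE), 13.8-fold lower, with an adjusted p of 4.15e-54 (edgeR quasi-likelihood test with line as a term, Benjamini-Hochberg over all genes). HMGB1 fell by 0.88 on the log2 scale (72.5 to 236.2 CPM, median 102.7, against 147.1 to 324.7 CPM, median 199.96, adjusted p = 1.72e-16). HMGB3 fell by 0.40 (30.7 to 178.8 CPM, median 63.5, against 65.3 to 137.6 CPM, median 89.2, adjusted p = 1.11e-05). All 3 members were thus called lower, where 22.3% of 13898 genes were. Line differences in mean log2 CPM ran from -4.15 to -3.46 for HMGB2, -1.09 to -0.65 for HMGB1 and -0.61 to -0.14 for HMGB3. The receptor and control lines differed in this response by -0.41 for HMGB2 (adjusted p = 0.851), 0.12 for HMGB1 and 0.27 for HMGB3, and in this test 0.120% of genes were called.

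The cell cycle lists were lower in the same comparison. All 19 G1/S genes, all 18 G2/M genes and all 14 chaperone and replicating chromatin genes were called lower, with medians of -2.71, -4.08 and -1.83, beside 0.04 over all genes. RRM2 fell by 6.29, PLK1 by 5.15 and TOP2A by 4.56 on the log2 scale, and UHRF1, which reads hemimethylated DNA, by 3.81. LMNB1 fell by 3.19 and LBR by 1.27. Over all 13898 genes tested, 3720 were called higher and 3096 lower. Of 14 MAPK output genes, 3 were called higher and 4 lower, with a median of 0.03. Of 14 other high mobility group genes, 2 were called higher and 5 lower with a median of -0.02, and HMGA1, a chromatin protein with AT hooks, fell by 0.77, while HMGN1 (-0.10, adjusted p = 0.251), HMGN3 (0.17) and HMGN5 (0.09) did not pass. Of 7 SET complex and partner genes, 2 were called higher and 3 lower, among them the nuclease TREX1 (0.42) and the repair scaffold XRCC1 (-0.66). AGER, the receptor RAGE, rose by 0.61 (adjusted p = 0.00408).

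In set 2, palbociclib and FIIN-3 as single agents were compared over all 8 lines. HMGB2 ran from 3.93 to 18.2 CPM (median 9.87) in 47 palbociclib libraries, against 42.1 to 125.4 CPM (median 66.2) in 47 FIIN-3 libraries, with no overlap. It was 6.60-fold lower with palbociclib (log2 -2.72 ± 0.07, adjusted p = 2.55e-55). The FIIN-3 libraries and the palbociclib libraries of the FGF3 line are also references for FIIN-3 with palbociclib, the combination behind the choice of genes. That adjusted p of HMGB2 is therefore not free of the choice. HMGB1 fell by 0.18 (72.3 to 266.3 CPM, median 99.3, against 88.1 to 181.2 CPM, median 115.02, adjusted p = 0.0115), and its ranges overlapped. HMGB3 differed by 0.01 ± 0.06 (adjusted p = 0.903), and by -0.05 without the 1 parental library of this contrast that stood apart. So 2 of 3 members were called lower, where 13.5% of 12144 genes were. All 18 G1/S genes and 17 G2/M genes that passed the filter were also lower, with medians of -1.61 and -2.65, beside 0.02 over all genes.

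In the FGF3 line, palbociclib gave HMGB2 values of 2.42 to 9.74 CPM (median 6.32, 6 libraries) on top of fulvestrant, against 75.2, 86.5, 97.6 and 86.5 CPM with fulvestrant. The log2 fold change was -3.80 ± 0.24 (adjusted p = 4.05e-12, edgeR). HMGB1 fell by 0.83 (adjusted p = 0.00134), and HMGB3 differed by -0.46 (adjusted p = 0.123), so that 2 of 3 were called lower, beside 5.56% of 10926 genes. Against the control group of set 2, palbociclib gave a log2 fold change of -3.29 for HMGB2, 9.80-fold lower (6.28 to 17.5 CPM against 74.98 to 103.1 CPM, adjusted p = 1.70e-08), and -0.85 for HMGB1 (adjusted p = 0.00332). HMGB3 differed by -0.44 (adjusted p = 0.0986) and was called lower, at -0.45, without the 1 control library that stood apart and was also shallow (adjusted p = 0.0199). Here 5.25% of 10741 genes were called lower. These palbociclib and control libraries are also references for palbociclib with FIIN-3, so the adjusted p of HMGB2 is not free of the choice of genes. All 6 palbociclib libraries were below all 6 control libraries for HMGB1 and HMGB2, and 5 of 6 were for HMGB3.

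**Figure D4:**
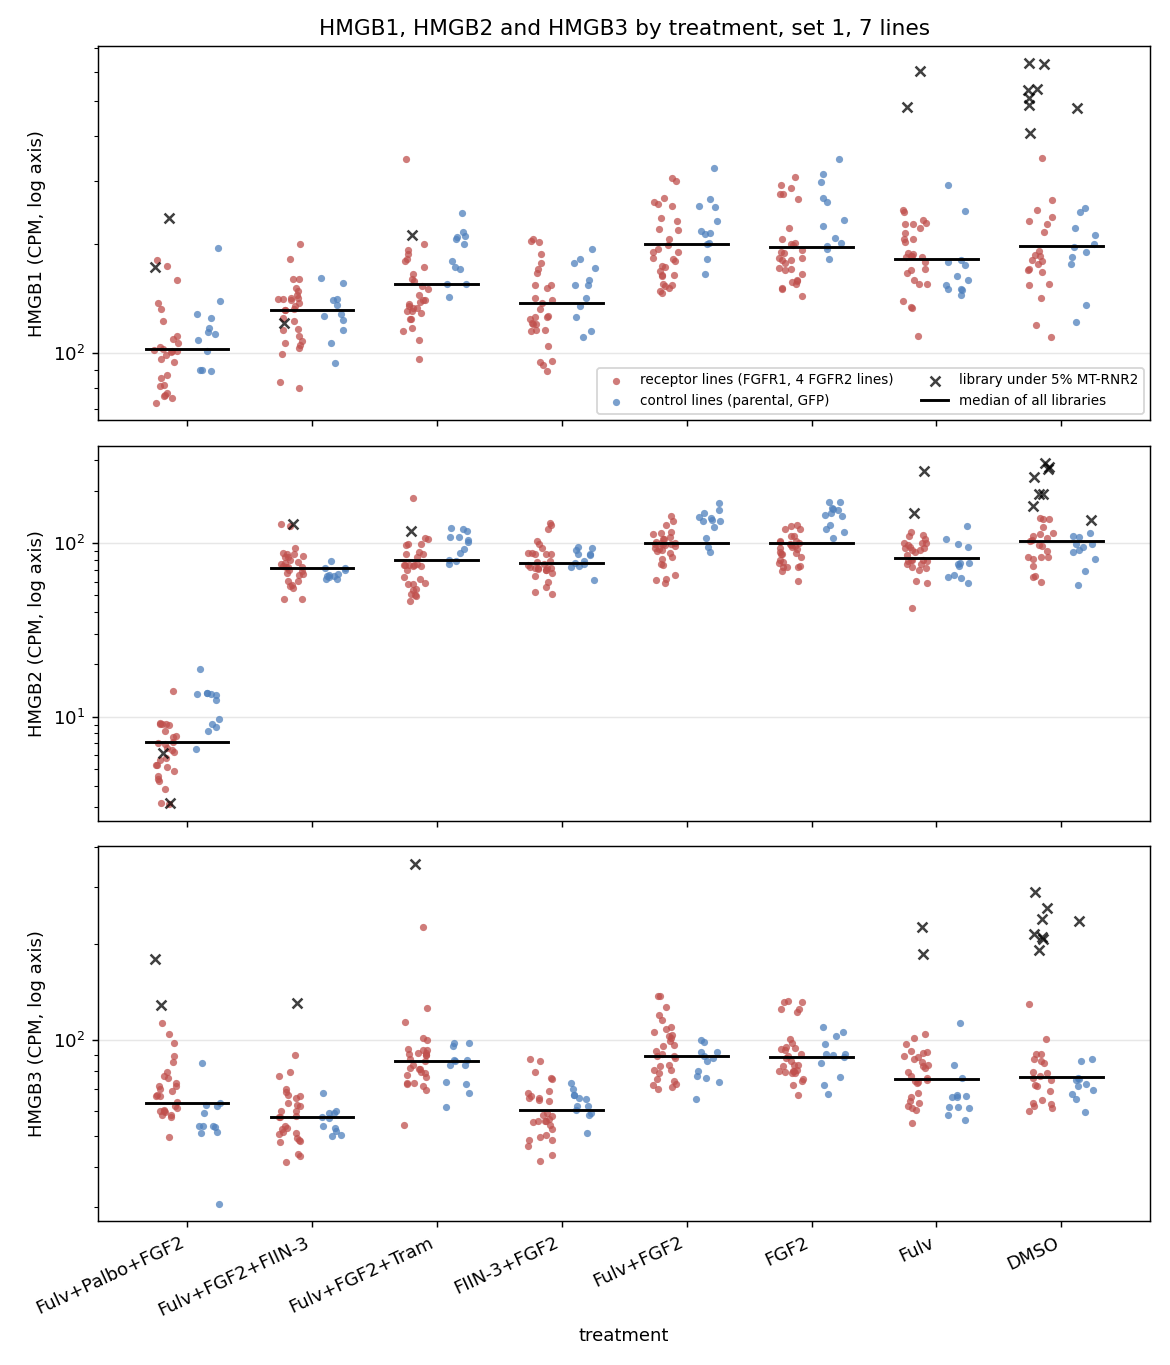
CPM (log axis) of HMGB1, HMGB2 and HMGB3 in each library of set 1, by treatment, for 7 lines; red points are the FGFR1 and FGFR2 lines, blue points the parental and GFP lines, crosses are libraries under 5% MT-RNR2, and bars are medians over all libraries. HMGB2 with fulvestrant, palbociclib and FGF2 (3.15 to 18.8 CPM) lies below every other treatment, and in the HMGB1 panel the crosses in the DMSO column (408 CPM or more) lie above the other DMSO libraries.

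Pooled over the 7 lines, FIIN-3 without palbociclib lowered all 3 genes, though mean HMGB2 was not lower in the N550K line. With FIIN-3 and FGF2, HMGB1 ran from 89.4 to 207.3 CPM (median 137.5, 41 libraries), against 143.7 to 345.3 CPM (median 196.5, 42 libraries) with FGF2. HMGB2 ran from 50.9 to 130.5 CPM (median 77.3), against 60.5 to 172.1 CPM (median 100.4), and HMGB3 from 41.8 to 86.9 CPM (median 60.4), against 67.4 to 132.6 CPM (median 88.6). The ranges overlapped for each, though all 41 HMGB3 values were below the FGF2 median. The log2 fold changes were -0.57 ± 0.07, -0.38 ± 0.07 and -0.58 ± 0.06 (edgeR adjusted p = 4.18e-12, 6.43e-07 and 1.69e-15), so all 3 were called lower, where 31.4% of 14003 genes were. The comparison on fulvestrant and FGF2 gave -0.66, -0.49 and -0.61 (adjusted p = 1.85e-16, 1.95e-08 and 8.08e-14), where 30.9% of 13932 genes were called lower. The cell cycle lists had medians of -0.87 over 19 of 19 G1/S genes called lower and -1.51 over 18 of 18 G2/M genes in the comparison on FGF2, beside -0.00 over all genes. Of 14 MAPK output genes, 13 were called lower, with a median of -2.18.

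For HMGB2 the response to FIIN-3 differed between lines. The parental and GFP lines fell by 0.88 and 0.73 in mean log2 CPM (80.6 against 149.2 CPM, and 82.7 against 137.9 CPM), with no overlap of libraries. The 5 receptor lines ran from -0.56 to 0.24 and overlapped in each, and the N550K line was the 1 line with a higher mean, 102.5 CPM against 84.7 CPM. The receptor lines minus the control lines differed by 0.58 ± 0.13 in the fold change (edgeR interaction, adjusted p = 0.00143), a term called for 11.1% of 14230 genes. HMGB1 and HMGB3 gave 0.15 (adjusted p = 0.591) and -0.13 (adjusted p = 0.550) for the same term, so 1 of 3 members was called. The higher FGF2 level of the control lines, 137.9 and 149.2 CPM against 84.7 to 102.3 CPM in the receptor lines, moved with this difference, and its part was not tested.

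In the FGF3 line, FIIN-3 with fulvestrant put all 6 libraries below all 4 fulvestrant libraries for each gene. HMGB1 was at 63.3 to 108.9 CPM (median 97.8) against 127.5, 168.5, 172.7 and 152.9 CPM, HMGB2 at 39.2 to 68.6 CPM (median 56.04) against 75.2, 86.5, 97.6 and 86.5 CPM, and HMGB3 at 27.5 to 38.9 CPM (median 30.8) against 42.5, 55.1, 71.7 and 59.2 CPM. The log2 fold changes were -0.69, -0.63 and -0.83 (adjusted p = 0.00187, 0.0110 and 0.00197), where 7.78% of 11171 genes were called lower. Against DMSO, HMGB2 fell by 0.65 (44.4 to 91.8 CPM, median 54.5, against 85.02, 89.3, 96.6, 94.98 and 84.9 CPM, adjusted p = 0.0176), beside 6.03% of 10169 genes called lower. That call ended without DMSO replicate 4 (-0.63, adjusted p = 0.0530) and without the shallow libraries (-0.52, adjusted p = 0.311). HMGB1 and HMGB3 differed by -0.43 each (adjusted p = 0.120 and 0.136), and were called lower with limma on the deposited log2 table (-0.62 and -0.64, adjusted p = 0.0248 and 0.0257). With limma the median of all genes was -0.13. Against the control group of set 2, FIIN-3 gave -0.82, -0.69 and -0.64 for HMGB1, HMGB2 and HMGB3 (adjusted p = 0.0146, 0.0240 and 0.0436), with all 5 FIIN-3 libraries below all 6 control libraries for each gene and 4.23% of 10618 genes called lower. These FIIN-3 and control libraries are also references for palbociclib with FIIN-3, so the adjusted p of HMGB2 is not free of the choice of genes. All 3 calls rest on few libraries. The HMGB1 call ended without FIIN-3 replicate 2 or 3, the HMGB2 call without FIIN-3 replicate 2, 3 or 4 or control replicate 5, and the HMGB3 call without any of FIIN-3 replicates 1, 3, 4 and 5 and control replicates 1, 2, 4, 5 and 6. The adjusted p then ran from 0.0527 to 0.129, with log2 fold changes of -0.76 to -0.55. With no filter on low counts the HMGB2 and HMGB3 calls ended as well (adjusted p = 0.0743 and 0.121). The HMGB3 call also ended with the replicate block, by neighbouring title numbers (-0.66, adjusted p = 0.0667). Without the 1 control library that stood apart all 3 were called (adjusted p = 7.82e-05 for HMGB1, 0.00292 for HMGB3). The FIIN-3 group of this line was made in both sets, and HMGB2 was at 59.3 ± 16.8 CPM in set 1 and 59.6 ± 12.6 CPM in set 2 (SD, n = 6 and 5), HMGB1 at 113.3 ± 24.0 and 119.3 ± 18.5 CPM, and HMGB3 at 45.4 ± 9.81 and 50.3 ± 11.2 CPM. The N550K line also had FIIN-3 in both sets (n = 6 each), with HMGB2 at 61.9 ± 9.58 and 60.5 ± 2.12 CPM, HMGB1 at 91.8 ± 11.1 and 106.2 ± 12.7 CPM, and HMGB3 at 40.9 ± 7.42 CPM in set 1 and 54.4 ± 6.16 CPM in set 2. TMM factors were computed in each set, and the sets were not tested against each other.

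The N550K line was the 1 receptor line given FIIN-3 without FGF2 in set 1. HMGB1 was at 72.3 to 102.4 CPM (median 95.5) with FIIN-3, against 167.4 to 636 CPM (median 214.6) with DMSO, HMGB2 at 52.3 to 78.2 CPM (median 60.2) against 80.6 to 288.8 CPM (median 107.5), and HMGB3 at 27.5 to 46.7 CPM (median 44.3) against 63.03 to 290.4 CPM (median 81.9). No FIIN-3 library reached the lowest DMSO library for any of the 3. The log2 fold changes were -1.88, -1.33 and -1.77 (edgeR adjusted p = 0.00350, 0.0136 and 0.00614), where 15.9% of 12467 genes were called lower. Of the 6 DMSO libraries 2 stood apart, and without them the values were -1.06, -0.61 and -0.84 (adjusted p = 5.96e-07, 0.00156 and 4.50e-05). On fulvestrant, FIIN-3 gave -1.49, -0.92 and -1.27 (adjusted p = 0.00257, 0.0203 and 0.00292), and -0.98, -0.54 and -0.85 without the 1 fulvestrant library that stood apart, where 18.9% of 12505 genes were called lower with all libraries.

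The effect of FGF2 on the members was small beside its effect on MAPK output genes. In FGF2 libraries HMGB1 ran from 143.7 to 345.3 CPM (median 196.5, 42 libraries), against 110.7 to 636 CPM (median 198.4, 40 libraries) with DMSO. HMGB2 ran from 60.5 to 172.1 CPM (median 100.4), against 57.6 to 288.8 CPM (median 103.4), and HMGB3 from 67.4 to 132.6 CPM (median 88.6), against 59.5 to 290.4 CPM (median 76.5). The highest DMSO value of each gene was in 1 of the 8 libraries that stood apart. With all libraries the log2 fold changes were -0.31, -0.20 and -0.22 (edgeR adjusted p = 0.0280, 0.131 and 0.107), so 1 member was called lower, where 30.5% of 14029 genes were. That HMGB1 call ended with no filter on low counts (-0.26, adjusted p = 0.0694) and with the replicate block (-0.18, adjusted p = 0.127). Without those 8 libraries the 3 values turned round, to 0.10, 0.13 and 0.23 (edgeR adjusted p = 0.311, 0.157 and 0.00180), so HMGB3 was called higher. With limma on the deposited log2 table they were 0.16, 0.24 and 0.26 (adjusted p = 0.0314, 0.00429 and 2.06e-04), all called higher. There the median of all genes itself moved by 0.28. No direction of FGF2 on DMSO is therefore given for HMGB1, HMGB2 or HMGB3. All 14 MAPK output genes rose, with a median of 1.37, as did 16 of 18 G2/M genes, with a median of 0.70, and 11 of 19 G1/S genes, with a median of 0.25, beside -0.01 over all genes. Of all 14029 genes, 3705 were called higher.

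The HMGB2 response to FGF2 also differed between lines. The means with FGF2 were 149.2 CPM in parental and 137.9 CPM in GFP cells, against 99.02 and 92.3 CPM with DMSO, and 84.7 to 102.3 CPM in the 5 receptor lines, against 107.9 to 157.3 CPM with DMSO. Without the libraries that stood apart, 7 of them in receptor lines, the DMSO means were 84.8 to 107.95 CPM in the receptor lines, and the difference of mean log2 CPM there was -0.16 to 0.09, against 0.58 and 0.74 in parental and GFP cells. The receptor lines minus the control lines differed by -1.07 ± 0.22 (adjusted p = 0.00178), and by -0.71 without the libraries that stood apart (adjusted p = 9.53e-04), where 3.64% of 14276 genes were called with all libraries. HMGB1 gave -0.62 (adjusted p = 0.166) and HMGB3 -0.34 (adjusted p = 0.476), so 1 of 3 members was called. On fulvestrant, FGF2 gave 0.04, 0.23 and 0.16 for HMGB1, HMGB2 and HMGB3 (adjusted p = 0.735, 0.0230 and 0.0726), so HMGB2 was called higher (58.8 to 169.9 CPM, median 100.0, against 42.5 to 259.2 CPM, median 82.6), as were 23.5% of 13938 genes. The HMGB2 call was lost with other size factors (0.20, adjusted p = 0.0541). HMGB3 was called higher as well without the libraries that stood apart (0.25, adjusted p = 1.10e-04), where HMGB2 gave 0.30 (adjusted p = 2.77e-04) and HMGB1 0.14 (adjusted p = 0.0598). HMGB3 was also called higher with the replicate block (0.20, adjusted p = 0.00664). With limma on the deposited log2 table HMGB3 gave 0.36 (adjusted p = 4.31e-08) and HMGB1 0.24 (adjusted p = 4.15e-04), where the median of all genes was 0.13. On palbociclib in set 2, HMGB2 was lower by 0.60 with FGF2 (2.01 to 14.97 CPM, median 5.58, 37 libraries, against 3.93 to 18.2 CPM, median 9.95, 41 libraries, adjusted p = 6.55e-05) where 20.9% of 12149 genes were called lower. These 37 libraries are also the reference for FIIN-3 with palbociclib and FGF2, the combination behind the choice of genes. The adjusted p of HMGB2 here is therefore not free of that choice. HMGB1 gave -0.16 and a call (adjusted p = 0.0295) that ended with no filter on low counts (-0.16, adjusted p = 0.109) and with limma on the deposited log2 table (-0.06, adjusted p = 0.313). That HMGB1 call also ended with the replicate block (-0.14, adjusted p = 0.0774). HMGB3 gave 0.10 with no call (adjusted p = 0.203), and was called higher without the 1 parental library that stood apart (0.15, adjusted p = 0.00202) and with limma (0.18, adjusted p = 3.25e-04). In mean log2 CPM, HMGB2 differed by -1.32 to -0.29 over the 5 receptor lines, by -0.15 in parental cells (0.04 without that library) and by 0.18 in GFP cells, and this line difference was not tested.

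**Figure D5:**
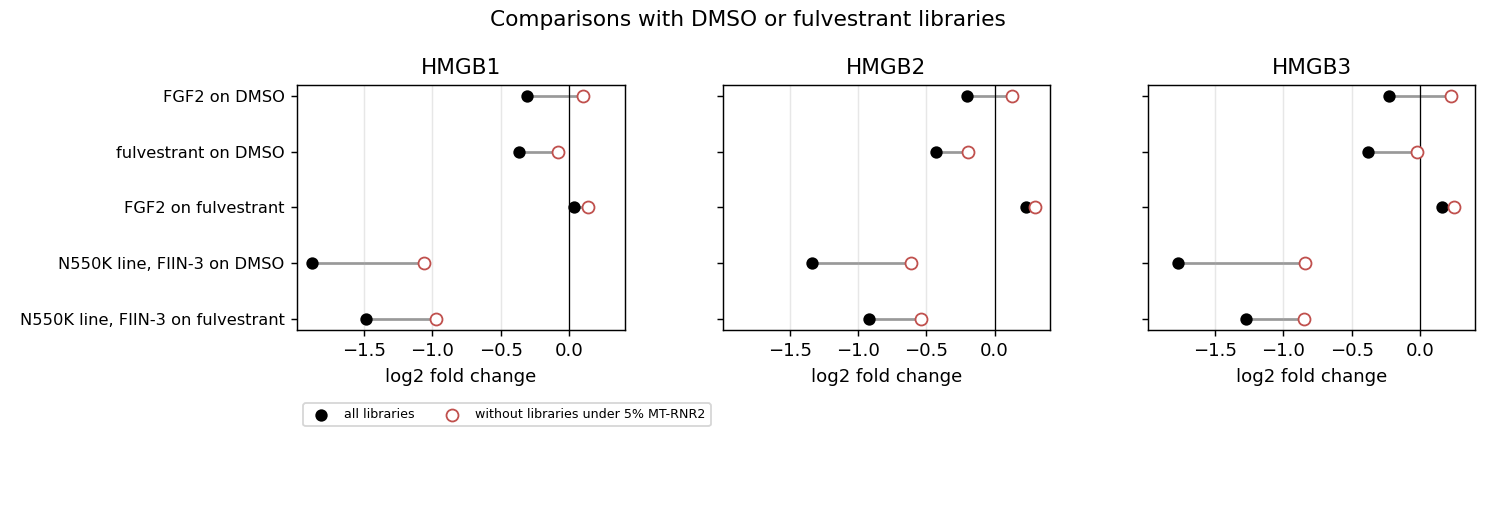
Log2 fold change of HMGB1, HMGB2 and HMGB3 in 5 comparisons of set 1 that use DMSO or fulvestrant libraries, with all libraries (black) and without those under 5% MT-RNR2 (open red). FGF2 on DMSO moves from below 0 to above 0 for each gene, fulvestrant on DMSO moves towards 0, and both FIIN-3 comparisons of the N550K line stay below 0.

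Trametinib on fulvestrant and FGF2 lowered HMGB1 and HMGB2. HMGB1 ran from 96.2 to 344.3 CPM (median 154.995, 42 libraries), against 147.1 to 324.7 CPM (median 199.96, 42 libraries), and HMGB2 from 46.6 to 181.5 CPM (median 79.6), against 58.8 to 169.9 CPM (median 100.0). Their ranges overlapped, and the log2 fold changes were -0.32 ± 0.06 and -0.31 ± 0.07 (edgeR adjusted p = 1.15e-05 and 3.11e-04). HMGB3 differed by 0.05 ± 0.09 (adjusted p = 0.682), and by -0.06 without the 1 trametinib library that stood apart and held 356.3 CPM. So 2 of 3 members were called lower, where 19.6% of 13758 genes were, and 14 of 14 MAPK output genes were, with a median of -2.68. All 18 G2/M genes were called lower (median -0.61) and 7 of 19 G1/S genes (median -0.09). In the FGF3 line, trametinib on fulvestrant lowered HMGB2 by 0.65 (39.1 to 83.996 CPM, median 48.2, against 75.2, 86.5, 97.6 and 86.5 CPM, adjusted p = 0.0301), beside 4.44% of 12206 genes. That call ended without trametinib replicate 1, 2 or 6 or fulvestrant replicate 2 or 3 (-0.64 to -0.57, adjusted p = 0.0614 to 0.0850). HMGB1 and HMGB3 differed there by -0.26 (adjusted p = 0.301) and -0.02 (adjusted p = 0.958). The trametinib, FIIN-3 and palbociclib comparisons on fulvestrant and FGF2 share their fulvestrant and FGF2 libraries.

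Fulvestrant on DMSO gave -0.37, -0.43 and -0.38 for HMGB1, HMGB2 and HMGB3 (adjusted p = 0.0296, 0.00359 and 0.0264), all called lower with all libraries, where 14.8% of 14090 genes were. HMGB2 ran from 42.5 to 259.2 CPM (median 82.6, 42 libraries), against 57.6 to 288.8 CPM (median 103.4, 40 libraries). Without the 10 libraries that stood apart no member was called, at -0.08, -0.19 and -0.02, so these calls rest on those libraries. In the FGF3 line the 3 values were 0.04, -0.10 and -0.08 (adjusted p = 0.996, 0.995 and 0.995), where 0 of 10392 genes were called by edgeR, 3 by DESeq2, and 410 had an unadjusted p under 0.05. No member passed the test of all 8 lines at DMSO (F = 2.14, 1.61 and 2.16, adjusted p = 0.157, 0.285 and 0.154), where 19.4% of 14306 genes were called, but with no filter on low counts HMGB1 and HMGB3 did (adjusted p = 0.0383 and 0.0178). Both also passed with the replicate block (adjusted p = 0.00467 and 0.0272), but not without the libraries that stood apart (adjusted p = 0.253 and 0.226). Line means of HMGB2 at DMSO were between 83.6 and 107.9 CPM once the libraries that stood apart were left out.

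The genes whose group means followed each member most closely were found over 64 groups in set 1 and 48 groups in set 2 among 8350 and 8630 genes, with Pearson's r of log2 CPM as the measure and no test. In set 1, HMGB1 was followed by CKS1B (0.97), RAD51C, HAUS1, RPL39L and DTYMK (0.94), HMGB2 by CDCA3 (0.95), NUSAP1, AURKB, IQGAP3 and STMN1 (0.94), and HMGB3 by MAGOHB (0.96), RPP30, CYCS, H3F3B and EIF2S1 (0.92). CKS1B is a CDK subunit, DTYMK makes thymidine nucleotides, NUSAP1 and AURKB act on the mitotic spindle and chromosomes, and MAGOHB is an exon junction component. In set 2, HMGB1 was again followed by CKS1B (0.87) and DTYMK, with RFC4, RNASEH2A and RFC2 (0.84). None of these 5 genes of HMGB2 in set 1 was among the first 5 of HMGB2 in set 2, which were HMGN2 (0.93), HAUS4, CASP2, DDB2 and NUCKS1 (0.83). HMGN2 is a nucleosome-binding high mobility group protein. HMGB3 was followed by NUDC (0.89), TUBG1, NUP93, NTMT1 and HSP90AA1 (0.85). Between the members, r was 0.68 for HMGB1 and HMGB2, 0.81 for HMGB1 and HMGB3 and 0.34 for HMGB2 and HMGB3 in set 1, and 0.31, 0.47 and -0.41 in set 2. Spearman's rho for the same pairs was 0.90, 0.79 and 0.65 in set 1, and 0.16, 0.47 and -0.43 in set 2. By rank, HMGB1 was thus closer to HMGB2 than to HMGB3 in set 1. The groups share lines and sequencing sets, and every set 2 group except the FIIN-3 and control groups held palbociclib.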

How the data were processed

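Per the labels' protocols, libraries were made by Smart-seq2, and the submitters' processing notes name STAR and hg19, with no source stating how reads were assigned to genes or whether strand was used. The authors deposited a table of read counts per gene symbol and a table of log2 values, read as log2(TPM + 1) with a pseudocount of 1; TPM levels were taken back from it. Counts were used as deposited, and CPM were counts per 1e+06 of a library's total scaled by its TMM factor, computed within each set; line differences are of mean log2 CPM with a prior count of 2.

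Groups came from the labels. The main test was edgeR 4.0.16 (quasi-likelihood, TMM factors, R 4.3.3) with genes kept by filterByExpr at a minimum count of 10, Benjamini-Hochberg adjustment over all genes kept and a threshold of 0.05. Comparisons of the 7 lines had line as a term, and FGF3 and N550K comparisons were fitted alone. Of 31 comparisons 22 were tested. The other 9, which use FIIN-3 with palbociclib libraries, were described by the fitted log2 fold change only. Alternatives were DESeq2 1.42.0 size factors and its test, limma 3.58.1 on the log2 table, no filter, a replicate block, leaving out shallow libraries (under 0.3 of the set's median total) or those that stood apart, pseudogene rows added, and, where a comparison of 1 line had an arm of 5 or fewer, leaving out each library. The test was also run on simulated data with the same dispersion for every gene, whose outcome is not given here. The labels give running title numbers and no replicate numbers, and replicate numbers here are the order within a group. For the replicate block, libraries of a group with neighbouring title numbers shared 1 of 3 pair numbers. Same-numbered libraries of 2 treatments deviated together in 163 of 318 pairs at a correlation over 0.1 (range -0.73 to 0.91). The median ran from -0.16 for trametinib on fulvestrant and FGF2 (3 of 21 pairs over 0.1) to 0.55 for fulvestrant on DMSO (17 of 21). It was 0.37 for FGF2 on fulvestrant and 0.38 for FIIN-3 on FGF2. The main fits treated all libraries of a group as independent. In 4 FGF3 comparisons of set 1 every pair was over 0.1, and the block changed no call there. No pair of libraries within a group was identical (0 of 1559).

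The members and gene lists were chosen with earlier results of these data known. List genes named are up to 4 per list with the largest change among those called in FGF2 on DMSO, and neighbours are the 5 genes of highest correlation among those with a mean log2 CPM of at least 3. Identity was computed on the longest open reading frame of GENCODE transcripts.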

Additional observations from a re-analysis of the deposited data

Results flagged for a closer look

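Within groups of 4 to 6 libraries, 38 checks, 11.3% of those run, found an end library far from the rest of its group, where chance flags about 1 in 20. In 32 of them the library was the highest and in 6 the lowest. Of the 38, 15 were in libraries that stood apart by their MT-RNR2 share, 4 in shallow libraries, and 21 in neither. Their part in the values was not tested.

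For HMGB1 in set 1, the libraries far above their group were at 275.7 CPM in the FGFR1 line and 275.9 CPM in the N550K line with FGF2, 181.6 CPM in the FGFR1 line and 195.1 CPM in parental cells with fulvestrant, palbociclib and FGF2, and 292.2 CPM in GFP and 246.7 CPM in parental cells with fulvestrant. Those that stood apart were at 212.1 CPM in the K660N line with fulvestrant, FGF2 and trametinib, and at 603 and 480.0 CPM in the N550K and wild-type FGFR2 lines with fulvestrant. A shallow FGF3 library with fulvestrant and FIIN-3 was far below, at 63.3 CPM. In set 2, HMGB1 was far above the group at 298.8 CPM in the FGF3 control group and 266.3 CPM in parental cells with palbociclib, both standing apart. It was also far above at 148.4 CPM in the M538I line with palbociclib, 153.5 CPM in the wild-type FGFR2 line and 150.2 CPM in GFP cells with FIIN-3, and 95.9 CPM in a shallow M538I library with palbociclib and FGF2.

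For HMGB2 in set 1, libraries that stood apart were at 118.2 CPM in the K660N line with fulvestrant, FGF2 and trametinib, 259.2 and 149.9 CPM in the N550K and wild-type FGFR2 lines with fulvestrant, and, at the low end, 3.20 CPM in the N550K line with fulvestrant, palbociclib and FGF2. The others were high at 14.1 CPM in the K660N line with fulvestrant, palbociclib and FGF2 and 181.5 CPM in the M538I line with fulvestrant, FGF2 and trametinib, and low at 47.4 CPM in the wild-type FGFR2 line with fulvestrant, FGF2 and FIIN-3. In set 2, HMGB2 was low at 74.98 CPM in the FGF3 control group and 16.7 CPM in parental cells with fulvestrant, palbociclib, FGF2 and FIIN-3, and high at 67.1 CPM in the M538I line with FIIN-3.

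For HMGB3 in set 1, libraries that stood apart were at 356.3 CPM and 178.8 CPM in the K660N line, with fulvestrant, FGF2 and trametinib and with fulvestrant, palbociclib and FGF2, at 225.7 and 186.3 CPM in the N550K and wild-type FGFR2 lines with fulvestrant, and at 235.7 CPM in GFP cells with DMSO. The others were high at 76.4 CPM in the FGF3 line with fulvestrant and trametinib, 98.1 CPM in the FGFR1 line and 62.2 CPM in GFP cells with fulvestrant, palbociclib and FGF2, 100.3 CPM in the K660N line with FGF2, and 112.9 CPM in GFP cells with fulvestrant. In set 2, HMGB3 was high at 171.1 CPM in parental cells with palbociclib, which stood apart, and low at 62.1 CPM in the K660N line with palbociclib and FGF2.

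The response of HMGB2 differed between the receptor lines and the control lines in 2 comparisons tested by an interaction term, by -1.07 for FGF2 on DMSO (edgeR adjusted p = 0.00178) and by 0.58 for FIIN-3 on FGF2 (adjusted p = 0.00143). Both comparisons share the FGF2 libraries.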

How the results depend on the processing

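Of 93 results, 68 were counted as unchanged under every alternative, leaving aside the refits without single libraries. For tested results this meant the same direction and the same side of the threshold. The test of lines at DMSO has no direction, so only its side of the threshold counted. Described results have no threshold, and counted as unchanged where the value moved by less than the gene's pooled SD within groups. Adding pseudogene rows changed none. The causes of the changes below were not tested.

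With DESeq2 size factors, HMGB2 for FGF2 on fulvestrant gave 0.20 and lost its call, and with the DESeq2 test HMGB3 for palbociclib on control in the FGF3 line gave -0.43 and gained one. With limma on the log2 table, FGF2 on DMSO gave 0.16, 0.24 and 0.26 for HMGB1, HMGB2 and HMGB3, the reverse of the counts. It gave 0.24 and 0.36 (HMGB1, HMGB3) for FGF2 on fulvestrant, -0.063 and 0.18 for FGF2 on palbociclib, -0.12 and -0.11 for fulvestrant on DMSO, and, in the FGF3 line, -0.62 and -0.64 for FIIN-3 on DMSO and -1.498 and -1.05 for palbociclib with FIIN-3 on control. HMGB3 gave -0.0045 for palbociclib against FIIN-3 and -0.046 for trametinib. The limma median of all genes was 0.28 for FGF2 on DMSO, 0.13 for FGF2 on fulvestrant and 0.13 for fulvestrant on DMSO. In the FGF3 line it was -0.13 for FIIN-3 on DMSO and -0.17 for palbociclib with FIIN-3 on control.

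With no filter, calls were lost by HMGB1 for FGF2 on DMSO (-0.26) and FGF2 on palbociclib (-0.16), by HMGB1 and HMGB3 for fulvestrant on DMSO (-0.31 each), and by HMGB2 and HMGB3 for FIIN-3 on control in the FGF3 line (-0.68 and -0.64), and gained by HMGB1 and HMGB3 for the lines at DMSO (adjusted p = 0.0383 and 0.0178). With the replicate block, calls were lost by HMGB1 for FGF2 on DMSO (-0.18, adjusted p = 0.127) and FGF2 on palbociclib (-0.14, adjusted p = 0.0774) and by HMGB3 for FIIN-3 on control in the FGF3 line (-0.66, adjusted p = 0.0667), and gained by HMGB3 for FGF2 on fulvestrant (0.20, adjusted p = 0.00664) and by HMGB1 and HMGB3 for the lines at DMSO (adjusted p = 0.00467 and 0.0272). In the FGF3 line the sign of 2 uncalled values turned, to -0.000183 for HMGB1 with fulvestrant on DMSO and 0.036 for HMGB3 with trametinib on fulvestrant. The block changed no other call.

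Without shallow libraries, HMGB2 for FIIN-3 on DMSO in the FGF3 line gave -0.52 and lost its call, and HMGB3 for palbociclib on control gave -0.45. Without the libraries that stood apart, FGF2 on DMSO gave 0.10, 0.13 and 0.23, fulvestrant on DMSO -0.078, -0.19 and -0.019, and HMGB3 gave 0.25 for FGF2 on fulvestrant, 0.15 for FGF2 on palbociclib, -0.45 for palbociclib on control, -0.048 for palbociclib against FIIN-3 and -0.057 for trametinib.

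Leaving out 1 library at a time was run for the FGF3 comparisons with an arm of 5 or fewer libraries and, for the lines at DMSO, over the lines with 5. It moved 26 of 387 values past a threshold or 0, each in an FGF3 comparison. It was not run for the other comparisons over 7 or 8 lines, for those of the N550K line or for palbociclib on control in the FGF3 line. The ranges were -0.022 to 0.14 for HMGB1 and -0.225 to 0.037 for HMGB3 with fulvestrant on DMSO, -0.81 to -0.59 for HMGB2 with FIIN-3 on DMSO, -0.80 to -0.57 for HMGB2 and -0.14 to 0.10 for HMGB3 with trametinib, and -0.89 to -0.65, -0.79 to -0.59 and -0.74 to -0.55 for HMGB1, HMGB2 and HMGB3 with FIIN-3 on control. Depth limits HMGB2 most in set 2, where its median count was 53, against 589.5 in set 1. Its lowest count was 6 in each set.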
